A study of Mus musculus with 109 samples.

Results

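The Upf1, Crtc1 and Myo9b block is the stretch of mouse chromosome 8 from 71 to 75 Mb (build mm9). It is defined by position, with no measured value in its definition, and holds 1146 of the 39480 HindIII sites of chromosome 8 and of the 823352 sites listed over all chromosomes. With 129 protein-coding gene starts it ranked 1 of 32 windows of 4 Mb along the chromosome. Its GC content of 46.4% ranked 4, and its number of HindIII sites ranked 26. The genes of its label lie near its middle on mm9. Upf1 spans chr8:72855421-72877172 on the minus strand and Crtc1 spans chr8:72906254-72963478 on the minus strand, both in the 500-kb bin that starts at 72500001. Myo9b spans chr8:73796613-73884611 on the plus strand, in the bin that starts at 73500001.

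All libraries came from C127 cells, a mouse mammary tumour cell line, kept in medium with 10% fetal calf serum. Cultures labelled M-0hr were held in mitosis with nocodazole for 4 h, and those labelled PM were released from that block for 0.5, 1, 2, 3 or 4 h, which takes them into G1. Cultures labelled G2 were taken 15 h after release, and cultures labelled G0 had been starved of serum for 5 days. Each of 6 chromosome 8 baits had 2 libraries at 0.5 h, at 1 h and in G0, and 1 library at 3 h, at 4 h and in G2, with 2 technical replicates at 2 h that were summed. Baits B7, B26, B44 and B53 also had 1 M-0hr library, so the comparison used 11 libraries for each of these baits and 10 for B87 and B118. The labels call the replicates biological, apart from the technical ones at 2 h, but do not say whether they came from separate cultures, so p-values measure the spread between these libraries. The series describes its aim as following the changes of chromatin organisation in early G1.

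In 4C-seq, crosslinked chromatin is cut and ligated, and a chosen site, the bait, is used to amplify whatever was ligated to it. A HindIII site is called captured here when it has at least 1 read. Contact falls with distance from the bait, so each value is set against the value expected at its distance from the same library. Gene-dense, GC-rich stretches and gene-poor stretches are known to lie in different nuclear compartments in interphase, and loci tend to contact others of their own kind over long distances. Upf1 is a helicase of nonsense-mediated mRNA decay, Crtc1 is a coactivator of CREB, and Myo9b is an unconventional myosin.

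The block is read from each bait through a primer that ends on the bait's own HindIII site, and these primers define the viewpoints. Each is given 5′ to 3′ as labelled, with the HindIII site in capitals. Each was found once on mm9 chromosome 8, the only chromosome searched, on the plus strand at the interval named here.
B7, chr8:7223950-7223970: tattaggacagacagAAGCTT
B26, chr8:26774313-26774332: ttgagtttgacgccAAGCTT
B44, chr8:44417335-44417354: ggtcatccctttagAAGCTT
B53, chr8:52961959-52961978: aaacatgtttggccAAGCTT
B87, chr8:87434064-87434081: gggcggagatggAAGCTT
B118, chr8:118459309-118459328: cctcatacagctggAAGCTT
B26 lies inside Whsc1l1 and B87 inside Dnase2a, with 27 and 64 protein-coding gene starts within 1 Mb on either side. B44 lies 24972 bp from Zfp42 with 8 such starts, and B118 lies 227615 bp from Maf with 5. B7 and B53 have 0 gene starts within 1 Mb. The block is 63.8 Mb from B7, 44.2 Mb from B26, 26.6 Mb from B44, 18 Mb from B53, 12.4 Mb from B87 and 43.5 Mb from B118.

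The 3 sites of the block that were captured most often are shown because they carry the most widely shared contacts, and a repeat-borne site is shown because such sites were almost never captured. Sequences are mm9 with the HindIII site in capitals, on the plus strand except the left end near Gm7697, which is on the minus strand. The interval given for the Gm7697 site is that of its HindIII site alone. None of the sites overlaps an annotated UTR.
Site near Slc18a1, chr8:71512195-71512320: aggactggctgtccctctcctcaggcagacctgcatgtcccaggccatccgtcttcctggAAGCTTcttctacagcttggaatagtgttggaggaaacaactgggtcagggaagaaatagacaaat
Site near Olfr372, chr8:74593483-74593608: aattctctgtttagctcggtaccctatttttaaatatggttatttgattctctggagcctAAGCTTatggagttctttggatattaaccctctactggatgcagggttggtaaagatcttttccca
Site near Lsm4, chr8:73190789-73190914: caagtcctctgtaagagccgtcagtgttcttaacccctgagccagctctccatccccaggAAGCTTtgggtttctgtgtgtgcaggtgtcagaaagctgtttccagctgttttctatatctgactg
Right end of the site near Gm7697, chr8:72036481-72036486: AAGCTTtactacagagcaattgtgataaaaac
Left end of the same site, read away from the site: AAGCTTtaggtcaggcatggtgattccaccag
The first site, 49355 bp from Slc18a1, was captured in 43 of the 64 libraries. The second, 10969 bp from Olfr372, was captured in 42, and the third, 6298 bp from Lsm4, in 41. The 32 bases of the right end near Gm7697 occur 10184 times at HindIII ends of the genome and those of the left end 8709 times.

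Each library held between 266006 and 8826711 reads (median 2985117) and 1018 to 23989 captured sites on chromosome 8 (median 13362). In all 70 columns used, the most reads lay at the labelled bait. The labels 0.5 h replicate 2, 3 h and 4 h had the fewest captured sites, with 1018 to 5781 per library against 3970 to 23989 in the others. The 1 h replicate 2 and the first technical replicate of 2 h shared 64.9% to 96.7% of the captured sites of the smaller library on other chromosomes, depending on the bait, which was 5.48 to 25.3 times chance. The technical replicates of 2 h shared 8.57% to 27.0%, or 1.90 to 2.61 times chance. G0 libraries shared sites with the same pair: at B118, G0 replicate 2 shared 81.5% with 1 h replicate 2 and 83.6% with the first technical replicate of 2 h (15.1 and 14.7 times chance). G0 replicate 1 shared 50.7% and 50.1% with them at B53 (11.4 and 11.7 times), 61.3% and 61.6% at B44 (4.01 and 4.03 times) and 29.4% and 26.8% at B26 (5.87 and 5.66 times). Libraries that share sites may not be independent, and results were also computed without each of these libraries. Reads carry no molecular identifiers, so counting intervals cover counting error only.

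The block was captured differently from different baits. Seen from the gene-poor baits B7 and B53 it had 0.596 and 0.582 times the captured sites expected at its distance. Seen from B26 in Whsc1l1 and B87 in Dnase2a it was near expectation on average but spread widely over libraries. Values below are log2 of observed over expected captured sites, where 0 is the expected level and -1 is a level reduced to 0.5 times.

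From B7 the block lay at -1.21 in the lowest library, -0.83 in the median and -0.42 in the highest (mean -0.75 ± 0.22, SD, n = 11). All 11 libraries were below expectation. From B53 it lay between -2.24 and -0.10 with a median of -0.46 (mean -0.78 ± 0.65, n = 11), again below 0 in every library. From B44, beside Zfp42, the range was -1.34 to -0.05 with a median of -0.33 (mean -0.50 ± 0.41, n = 11). From B118, near Maf, the range was -0.58 to 0.21 with a median of -0.36 (mean -0.26 ± 0.24, n = 10), and 1 of 10 libraries was above 0.

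From B26 the range was -0.40 to 1.05 with a median of 0.14 (mean 0.19 ± 0.49, n = 11), and 6 of 11 libraries were above expectation. From B87 it was -0.41 to 1.06 with a median of -0.02 (mean 0.17 ± 0.62, n = 10), and 5 of 10 were above. The libraries of these 2 baits therefore lay on both sides of the expected level. In numbers of sites, B26 captured 45 to 603 of the block's sites per library, B87 66 to 709, B53 17 to 733 and B7 11 to 223.

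**Figure D1:**
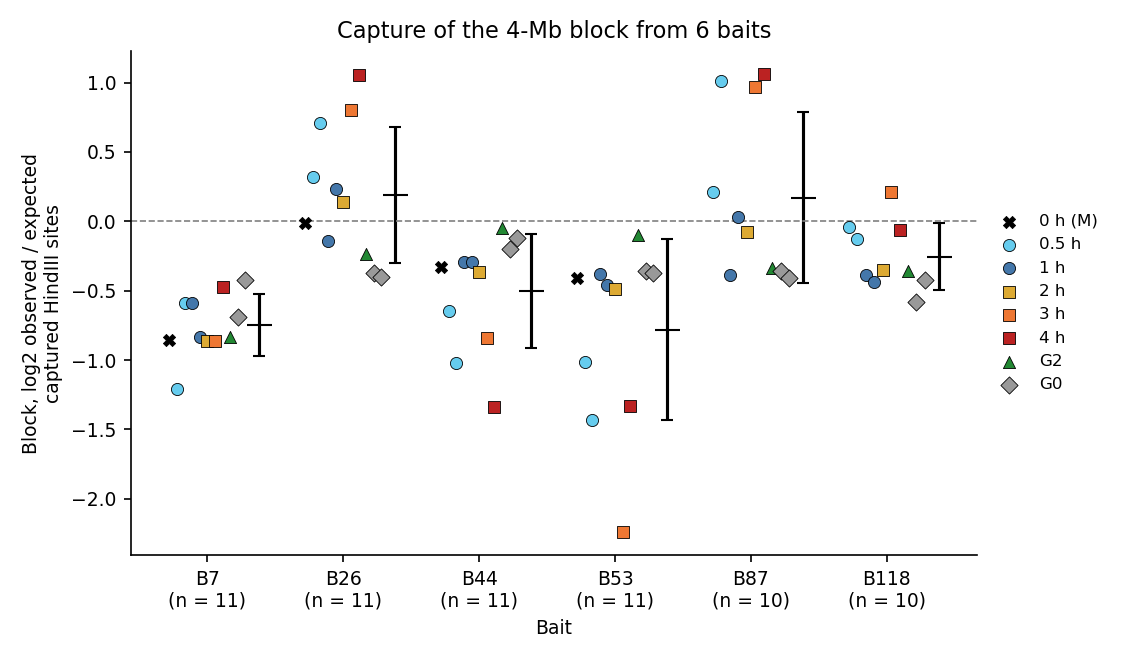
Log2 of observed over expected captured HindIII sites in the block (y axis) for each of the 64 libraries, by bait (x axis). Symbols give the label of the library, and the bar beside each bait is the mean with its SD. All B7, B44 and B53 libraries lie below 0, while B26 and B87 have libraries on both sides of 0, with the 4 h library highest at each.

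In limma fits over all 4-Mb windows more than 2 Mb from each bait, the block was called below expectation from B7 (adjusted p = 2.29e-08), B53 (adjusted p = 0.00327), B44 (adjusted p = 0.00331) and B118 (adjusted p = 0.0120). It was not called from B26 (adjusted p = 0.248) or B87 (adjusted p = 0.420). Over all baits, 45 of 180 windows were called lower (25%) and 41 higher (22.8%), so a called window was common along the chromosome. Among the 30 windows of each bait the block ranked 29 from the highest at B7, B44 and B53, 24 at B118, 10 at B87 and 7 at B26.

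The level against expectation depended on how sites were counted. The expected value above takes no account of the number of HindIII sites per bin, in which the block ranked 26 of 32 windows. When the share of HindIII sites was used, whatever their ends, the level from B26 rose and was called higher. The call from B118 was then lost. The parts of site number and of unique ends in these shifts were not tested apart. Of the block's 1146 sites, 190 (16.6%) have no end whose 32 bases are unique among the HindIII ends of the genome, against 8.73% of the sites of chromosome 8. Of these 190, 185 were captured in none of the 64 libraries. When the expected value was built from unique ends, a choice made after seeing the data, the block lay at -0.40 from B7 (still called lower in limma), 0.48 from B26 (adjusted p = 0.0182, above expectation), -0.20 from B44 (adjusted p = 0.145), -0.43 from B53 (adjusted p = 0.0664), 0.49 from B87 and 0.07 from B118. B53, B7, B44 and B118 kept their order from the lowest up, below B26 and B87, while the calls at B44, B53 and B118 were lost.

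Comparing baits with each other sets the same sites against themselves. In a limma fit paired by library label (10 labels present for all baits), 7 of 15 bait pairs differed in the block. Over all windows and pairs, 160 of 420 (38.1%) did. The block was 0.95 ± 0.23 (SE) higher from B26 than from B7, with the same direction at 10 of 10 labels (adjusted p = 0.000902). It was 0.91 higher from B87 than from B7, at 10 of 10 labels (adjusted p = 0.00128). From B53 it was -1.03 against B26 (adjusted p = 0.000368), and it was higher from B53 at 3 of 10 labels. From B87 it was 0.99 above B53 (adjusted p = 0.000541) and 0.69 above B44 (adjusted p = 0.0131), each at 6 of 10 labels. From B44 it was -0.73 against B26 (adjusted p = 0.00860), and from B118 it was 0.56 above B53 (adjusted p = 0.0428), which without the 3 h libraries was 0.35 (adjusted p = 0.196, limma). B26 and B87 differed by -0.04 ± 0.23 and B53 and B7 by -0.08 ± 0.23 (B87 minus B26 and B53 minus B7, limma, SE), neither past the threshold.

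The contrast of B26 and B87 with B7, B44 and B53 was smaller without the 3 labels of fewest captured sites. Without 0.5 h replicate 2, 3 h and 4 h, a setting added after seeing the data, 5 pairs were called in limma. B26 stayed 0.71 above B7 and B87 0.59 above B7. B44 at 0.49 above B7 (adjusted p = 0.00453) and B118 at 0.41 above B7 (adjusted p = 0.0183, limma) were called here but not with all labels. B53 lay 0.32 above B7 at 7 of 7 labels (adjusted p = 0.0602, limma). B53 was -0.39 against B26 (adjusted p = 0.0258). The differences of B87 from B44 (0.09), B87 from B53 (0.26), B44 from B26 (-0.22) and B118 from B53 (0.08) no longer passed, and the block then lay at -0.06 from B26 and -0.19 from B87. Leaving out the 4 h libraries alone left 4 pairs called, and leaving out 1 h replicate 2 or 2 h technical replicate 1 left 7. The part of sparse capture in these differences was not tested.

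Within the block, the 500-kb bins did not behave alike. In the limma fits 24 of 48 bin-by-bait values were called lower and 3 higher, against 23.6% lower and 17.8% higher over all 1452 bins and baits. The 3 higher bins were all at the proximal edge when all sites were counted. From B26 the first bin, which holds Csgalnact1, Ints10 and Lpl, lay at 0.59 ± 0.38 (SD, n = 11) and the second at 0.27, each above expectation in 11 of 11 libraries. From B118 the first bin lay at 0.26. With unique ends 4 bins were called higher: from B26 the first bin (0.36, adjusted p = 0.0457), the bin that starts at 72000001 (0.53, adjusted p = 0.0321) and the Upf1 and Crtc1 bin, and from B87 the Upf1 and Crtc1 bin. The second bin from B26 (adjusted p = 0.0690) and the first bin from B118 (0.066, adjusted p = 0.595, limma) then lost their calls. The share of all bins called with unique ends was not computed, so these 4 calls have no background beside them. With all sites, the first bin was the highest of the 8 from B26, B44 (0.19), B53 (-0.37) and B118, the second was the highest from B7 (-0.46), and the Upf1 and Crtc1 bin was the highest from B87 (0.29 ± 0.94, n = 10). Without the 3 labels of fewest captured sites the first bin was the highest from B87 as well (0.24), and the Upf1 and Crtc1 bin lay at -0.28 there.

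The Myo9b bin, which also holds Haus8, a subunit of the augmin complex, and Nr2f6, a nuclear receptor, was the lowest of the 8 from every bait when all sites were counted. Its mean was -1.62 ± 0.78 from B7, -1.40 ± 0.51 from B53, -1.17 ± 0.34 from B44, -1.02 ± 0.62 from B118, -0.65 ± 0.63 from B26 and -0.49 ± 0.68 from B87 (SD, n = 11 or 10), and it was called lower from 5 of 6 baits. Of its 139 sites, 71 (51.1%) were captured in none of the 64 libraries, and 46 of those 71 have no unique end. With unique ends the same bin lay at -0.82 from B7, -0.58 from B53, -0.40 from B44, -0.24 from B118, 0.10 from B26 and 0.29 from B87. It remained called lower in limma from 3 baits, B7, B44 and B53, and was the lowest of the 8 only from B7, B26 and B118.

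**Figure D2:**
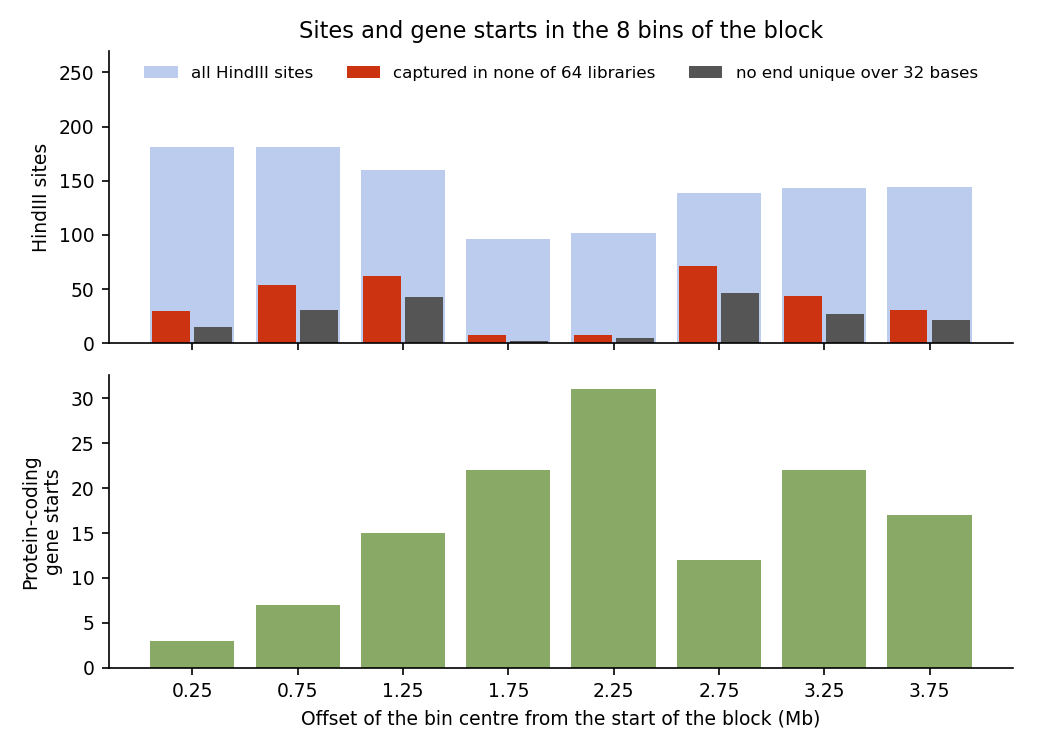
Upper panel, HindIII sites per 500-kb bin of the block (y axis, number of sites) with the sites captured in none of the 64 libraries and the sites without a unique end. Lower panel, protein-coding gene starts per bin; the x axis of both is the offset of the bin centre from the start of the block in Mb. The bin at 2.75 Mb, which holds Myo9b, has 71 of 139 sites never captured, and the bins at 1.75 and 2.25 Mb have 8 each.

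The Upf1 and Crtc1 bin has 22 protein-coding gene starts and 96 HindIII sites, the fewest of the 8 bins, but only 2 of them lack a unique end. Counting all sites it lay at -1.13 ± 0.94 from B53 and -1.03 ± 0.85 from B7, -0.63 from B44 and -0.39 from B118, all called lower in limma, and at 0.27 from B26 and 0.29 from B87, not called. Counted per unique end it was the highest bin from both gene-rich baits, 0.83 ± 0.44 from B26 (11 of 11 libraries above 0, adjusted p = 0.00535) and 0.87 ± 0.99 from B87 (10 of 10 above 0, adjusted p = 0.0394, limma). From B7, B44 and B53 it lay at -0.43, -0.05 and -0.50 on that scale, none of them called. From B118 it lay at 0.20, above 0 in 8 of 10 libraries (adjusted p = 0.0674, limma), where the call below expectation was lost and the sign turned.

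Between baits this bin differed as follows. It was 1.46 ± 0.34 (SE) higher from B87 than from B53 (adjusted p = 0.00128) and -1.47 ± 0.34 from B53 against B26, lower at 10 of 10 labels (adjusted p = 0.00123, limma fit on bins). Those differences were 1.42 and -1.40 with unique ends. They rested in part on the labels of fewest captured sites. Without those labels the bin's mean, with all sites counted, was -0.28 from B87, -0.63 from B53 and 0.04 from B26. With all labels it was 0.29, -1.13 and 0.27, further apart. Differences between baits were not tested for single bins without those labels. With all labels, 34 of 120 bin-by-bait-pair differences of the block were called (28.3%), against 25.5% over all bins. The block as a whole was therefore close to the background. The Upf1 and Crtc1 bin and the bin before it each gave 6 of their 15 pairs. B26 was called above B7 in 8 of 8 bins, and B53 was called below B26 in 7 of 8. B53 minus B26 ran from -1.47 to -0.70 over the 8 bins. In 8 of the 15 pairs 0 bins were called, B118 minus B53 among them, although that pair was called for the block as a whole.

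**Figure D3:**
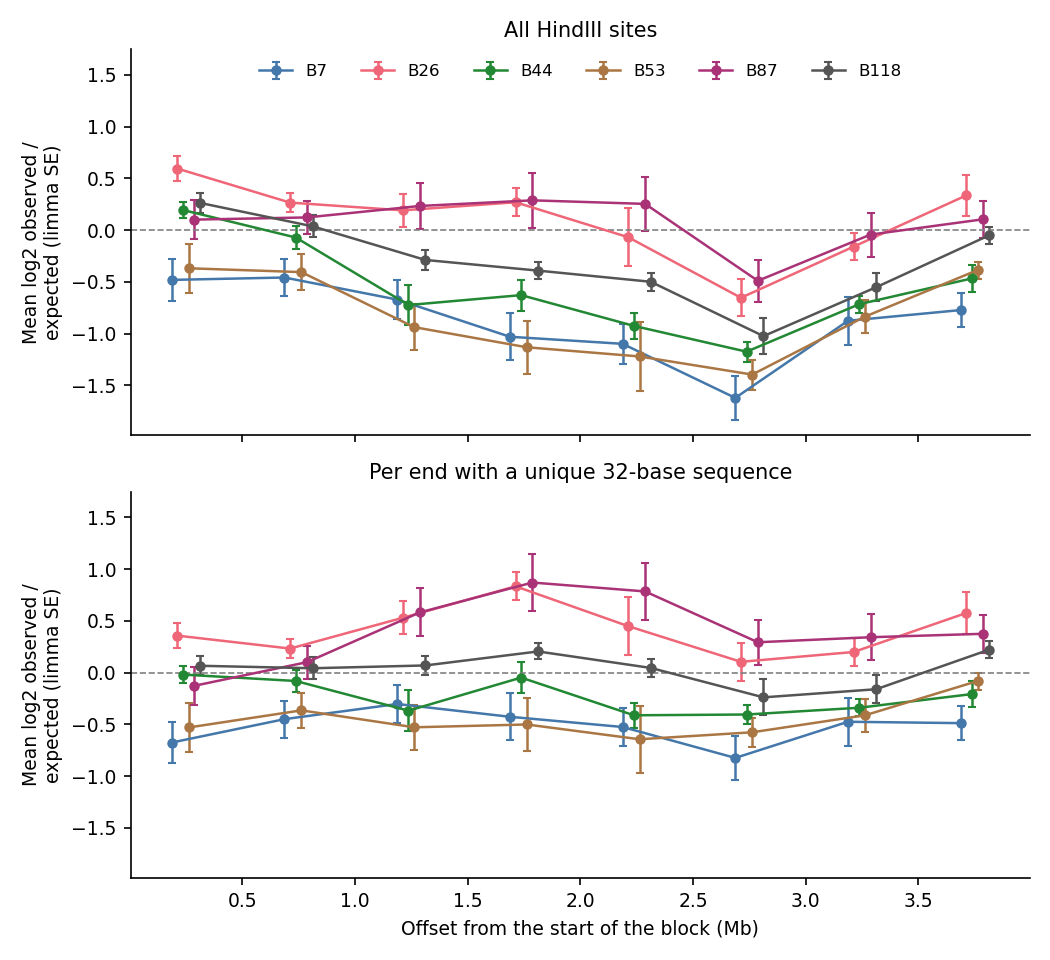
Mean log2 of observed over expected captured sites (y axis, bars are limma SE) in the 8 bins of the block against the offset from its start in Mb (x axis), 1 line per bait. In the upper panel, with all sites, every bait dips at 2.75 Mb, the Myo9b bin; in the lower panel, per unique end, B26 and B87 peak at 1.75 Mb, the Upf1 and Crtc1 bin, at 0.83 and 0.87.

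At the level of single genes, capture was counted as the share of site and library combinations with a read, over sites with a unique end. The block as a whole gave 7.47% from B7, 28.7% from B26, 36.7% from B44, 43.3% from B53, 44.6% from B87 and 33.7% from B118. These shares are compared only within a bait. The 9 sites of Crtc1 were captured at 44.4% from B26, 49.5% from B44, 53.5% from B53 and 60% from B87. The 9 sites of Upf1 gave 32.3%, 36.4%, 46.5% and 57.8% from the same baits. The 30 sites of Myo9b gave 33.0%, 37.0%, 48.2% and 50.3%. Crtc1 stood above the block's share at each of these 4 baits, and Myo9b did too, at 7.88% from B7 and 36.0% from B118 as well, although its bin as a whole, with all sites counted, was the lowest of the block.

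The other genes listed for the block were matched by symbol, so a gene annotated under another symbol was not counted. By symbol, 12 of 13 signalling genes, 10 of 13 transcription and RNA genes and 12 of 13 matrix and metabolism genes were found in it. Of these, 3, 5 and 5 have at least 3 sites with a unique end. Together with the 3 genes of the label, 16 of 16 such genes were above the block's share from B87, 14 from B26, 13 from B53, 11 from B118, 10 from B44 and 9 from B7. Of all 52 protein-coding genes that start in the block and have at least 3 such sites, 38 were above the block's share from B87 (73.1%), 39 from B26 (75%), 35 from B53 (67.3%), 33 from B118 (63.5%), 30 from B44 (57.7%) and 27 from B7 (51.9%), so the listed genes are described here and nothing particular is read from their counts. The 3 signalling genes ranged from 22.7% to 54.5% from B26, where 2 of 3 were above the block's share, and from 55.0% to 60% from B87. Rab8a, a small GTPase of membrane traffic, was captured at 54.5% from B26 and 60% from B87. Unc13a, which primes synaptic vesicles, gave 34.1% and 60%. Among transcription and RNA genes, Gatad2a, a subunit of the NuRD complex, gave 43.0% and 60.5% over 22 sites, Mau2, a loader of cohesin, 34.1% and 65.0%, Ell, an elongation factor, 34.1% and 48.3%, and Haus8 19.3% and 47.5%. Among matrix and metabolism genes, Ncan, a brain proteoglycan, gave 40.9% and 62.5%, Slc5a5, the sodium iodide symporter, 40.3% and 62.9%, and Plvap, an endothelial protein, 33.3% and 66.7%. Jund, Klf2, Nr2f6, Gdf15, Insl3, Hapln4, Isyna1 and Ifi30 hold no HindIII site between their ends, so the assay has no value within them.

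Of the 1146 sites, 838 (73.1%) were captured in at least 1 library and 403 by all 6 baits. The remaining 308 (26.9%) were captured in none, against 14.6% on the whole chromosome. Among the 848 sites with 2 unique ends, 7.19% were never captured, against 5.22% on chromosome 8. Such sites inside protein-coding gene bodies were captured in a median of 27 libraries and those outside in 24, and the median was 26 whether the next site of DpnII, the second enzyme, lay within or beyond 100 bp. The most shared sites after those printed above were 18864 bp from Zfp930, 591 bp from Comp, which encodes a cartilage matrix protein, and 3755 bp from Il12rb1, a subunit of the interleukin 12 receptor, each captured in 40 libraries. All 6 of these sites were captured from every bait at least once, with B7 reaching the Il12rb1 site in 1 library and the first site in 5.

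Set beside 3 other windows of 4 Mb, the block had the lowest mean of the 4 from B7, B44, B53 and B118. The windows were the proximal flank, from 67 to 71 Mb with 21 gene starts, the distal flank, from 75 to 79 Mb with 16, and the window from 107 to 111 Mb, which holds Ctcf and has 97. The difference was tested per bait by an exact two-sided sign-flip permutation over libraries, whose smallest possible p is 0.000977 with 11 libraries and 0.00195 with 10, adjusted over the 18 differences. In all, 13 of 18 passed. Other windows were not set against each other in this way, so no share over the chromosome stands beside this count. From B53 the block lay at -0.82 ± 0.41 against the proximal flank, -0.95 ± 0.86 against the distal flank and -0.67 ± 0.58 against the Ctcf window, lower in 11 of 11 libraries each time (adjusted p = 0.00251, exact). From B7 the differences were -0.78, -0.58 and -0.72, and from B44 -0.77, -0.57 and -0.47, all past the threshold. Another gene-rich window, which starts at 123000001 and has 70 gene starts, was not among these 3. Its mean was -0.38 from B7, -0.46 from B44, -0.76 from B53 and -0.42 from B118. From B26 and B87 that window lay at 0.05 and 0.57.

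From B26 the block exceeded the distal flank by 0.66 ± 0.74 in 9 of 11 libraries (adjusted p = 0.0162, exact permutation), which without the 3 labels of fewest sites became 0.29 and did not pass. It differed from the proximal flank by -0.01 and from the Ctcf window by -0.18, neither past the threshold. From B87 it was below the Ctcf window by -0.44 ± 0.11 in 10 of 10 libraries (adjusted p = 0.00352, exact), while the differences from the flanks, 0.26 ± 0.97 and 0.82 ± 1.34, ran both ways. From B118 it was below the proximal flank by -0.52 ± 0.12 in 10 of 10 libraries (adjusted p = 0.00352, exact) and below the Ctcf window by -0.29 ± 0.23. With unique ends, 4 of the 13 calls were lost: the block then lay at 0.06 against the Ctcf window and -0.07 against the proximal flank from B118, and at -0.15 from B44 and -0.30 from B53 against the Ctcf window, none past the threshold. Of the sites of the Ctcf window 5.20% lack a unique end, of the proximal flank 10.9% and of the distal flank 14.1%.

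**Figure D4:**
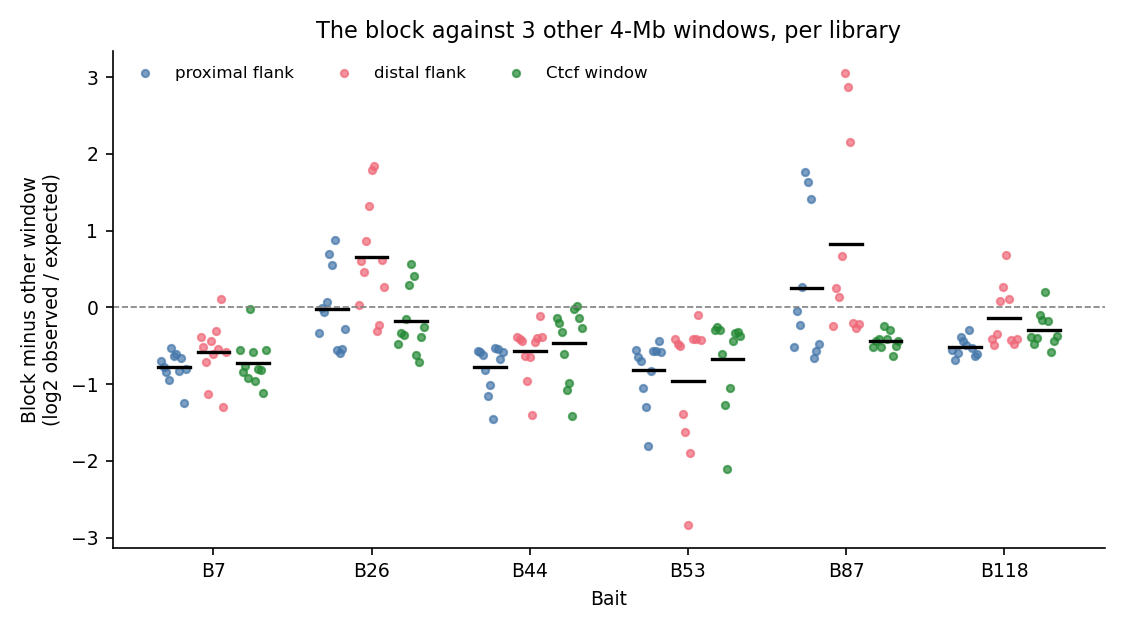
Block minus each of 3 other 4-Mb windows in log2 of observed over expected captured sites (y axis), 1 point per library, by bait (x axis), with the mean as a bar. From B53 all libraries lie below 0 for all 3 windows, while from B87 3 libraries exceed the flanks by more than 1.

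Across library labels, the baits moved apart and together. In the library at 3 h the block ranged over baits from -2.24 at B53 to 0.97 at B87, a spread of 3.21. At 4 h the spread was 2.40, with B26 at 1.05, B87 at 1.06, B44 at -1.34 and B53 at -1.33, and in 0.5 h replicate 2 it was 2.45. In 0.5 h replicate 1 it was 1.52, in the 2 replicates at 1 h 0.45 and 1.07, and at 2 h 1.01. In G2 it was 0.79, and in the 2 G0 libraries 0.49 and 0.30, where all 6 baits lay between -0.69 and -0.12. The 4 M-0hr libraries ran from -0.85 at B7 to -0.01 at B26.

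The labels with a wide spread were also those with sparse capture. The median share of the block's sites captured per library was 4.54% at 3 h, 3.71% at 4 h and 7.77% in 0.5 h replicate 2, against 53.2% at 2 h, 44.2% and 45.5% at 1 h and 19.3% and 36.7% in G0. B53 at 3 h captured 21 of 1146 sites, 1.83% (95% Clopper-Pearson interval 1.14% to 2.79%), and B26 at 4 h 59 sites, 5.15% (3.94% to 6.59%). With every library thinned to the fewest captured sites of its bait, the spread was 3.30 at 3 h, 2.40 at 4 h, 2.20 in 0.5 h replicate 2, 1.09 at 2 h, and 0.56 and 0.44 in G0. In reads it was 3.01, 1.77, 3.03, 1.83, 0.61 and 0.62. G2 combined sparse capture at B7 (1.05%) and dense capture at B87 (61.9%) with a narrow spread.

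**Figure D5:**
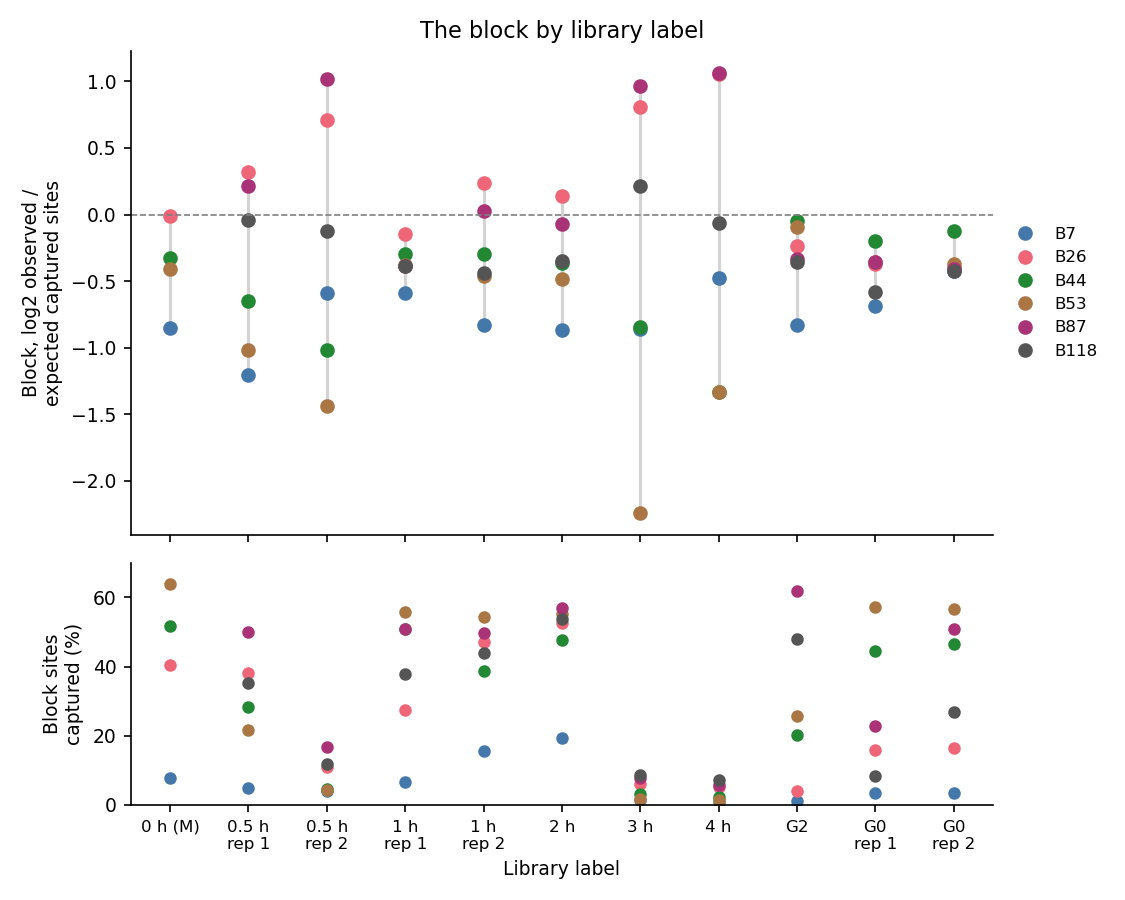
Upper panel, log2 of observed over expected captured sites in the block (y axis) for each bait, by library label and replicate (x axis), with a grey line from the lowest to the highest bait. Lower panel, percent of the block's HindIII sites captured in the same libraries. The spread over baits is 3.21 at 3 h and 0.30 in G0 replicate 2, and the labels 0.5 h replicate 2, 3 h and 4 h have the lowest captured shares.

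Averaged over the 6 baits the block did not change between labels by the limma test. The later libraries (2 to 4 h, 3 labels) minus the first-hour libraries (4) gave 0.04 ± 0.06 (SE, adjusted p = 0.667), and G0 (2) minus 2 to 4 h gave -0.11 ± 0.08 (adjusted p = 0.425). Of 32 windows, 0 were called in either contrast (0%). Differences of opposite sign at single baits, none of which passed limma's test with all libraries, offset each other in this average. Within baits, a comparison added after seeing the data, the G0 libraries minus those of 2 to 4 h gave -1.05 ± 0.30 from B26, -1.04 ± 0.44 from B87, -0.43 ± 0.18 from B118, 0.99 ± 0.48 from B53, 0.69 ± 0.29 from B44 and 0.18 ± 0.21 from B7 (SE). The libraries of both labels did not overlap at 5 of 6 baits, all but B7. Without the G0 library that shared sites with 1 h replicate 2 the difference was -0.51 from B118 (without G0 replicate 2), and 0.98 from B53, 0.73 from B44 and -1.07 from B26 (without G0 replicate 1). Without the first technical replicate of 2 h it was -1.17 from B26, which then passed limma's test (adjusted p = 0.0493). The lack of overlap was also seen in 49.4% of all windows and baits, and 0 of 180 (0%) passed limma's test, the block's adjusted p-values lying between 0.151 and 0.539. The difference between B53 and B26 was -2.02 at 2 to 4 h and 0.02 in G0, a change of 2.04 ± 0.73 (SE, adjusted p = 0.167, limma), and 0 of 420 such changes (0%) passed.

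Read counts per bin were tested as well. By edgeR's quasi-likelihood test 0 of the 48 bin-by-bait values of the block were called between the first hour and 2 to 4 h, with 0 of 1455 (0%) over the chromosome; 0 of the 48 and 28 of the 1455 (1.92%) had an unadjusted p under 0.05. Between 2 to 4 h and G0, 0 of 48 were called, again with 0 of 1455 (0%), while 11 of the 48 and 454 of the 1455 (31.2%) had an unadjusted p under 0.05. DESeq2 called 0 for the first contrast and 9 of 48 for the second, with 358 of 1455 (24.6%) over the chromosome.

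The smallest p-values for G0 against 2 to 4 h were all at B26. They were in the bin that starts at 72000001, which holds Lpar2, a lysophosphatidic acid receptor, and Ndufa13, a subunit of complex I (log2 change -2.56 ± 0.57, SE, edgeR adjusted p = 0.0649), the bin that starts at 73000001 with Ell, Jund and Pik3r2 (-3.16 ± 0.91, adjusted p = 0.0801) and the Myo9b bin (-2.12 ± 0.66, adjusted p = 0.0850). From B26 all 8 bins had lower values in G0, between -3.16 and -1.26, and from B53 all 8 had higher values, between 0.99 and 2.94. For 2 to 4 h against the first hour, the smallest p-values were at B7 in the bin that starts at 74000001, with Plvap and Jak3 (1.53 ± 0.93), at B53 in the first bin (-1.09 ± 0.70) and at B87 in the last bin, with Klf2 (0.69 ± 0.45), each with an edgeR adjusted p of 0.915.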

How the data were processed

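The deposited table holds read counts per HindIII site as whole numbers, which the authors made from reads aligned with BWA 0.5.9 to mm9, per the submitters' processing notes; the labels name no read filter. Of its 109 columns, 70 (chromosome 8 baits, without 1.5 h) were used and 39 left out; 0 columns could not be mapped. All 39480 chromosome 8 positions matched HindIII sites of mm9. Sites with at least 1 read were counted per 500-kb bin more than 2 Mb from the bait, and the expected value was a lowess fit (span 0.5) of log2(count + 0.5) on log10 distance per library. Genes were GENCODE M1. Tests were limma 3.58.1, edgeR 4.0.16 and DESeq2 1.42.0 with Benjamini-Hochberg adjustment at 0.05, and exact sign-flip tests in Python; limma and edgeR scripts were tested on simulated data. Named regions were the highest and lowest bin per bait, the bins of the label's genes, and the bins of smallest p (3 per contrast); named sites were the 6 captured most often. The block, its gene lists and these rules were chosen with earlier results of these data known. Alternatives covered depth, reads, site density, the distance fit, replicates and single libraries. Replicate numbers did not pair libraries: correlations of same-numbered deviations ran from -0.41 to 0.27, with 4 of 18 over 0.1. Values of some listed genes are not reported here.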

Additional observations from a re-analysis of the deposited data

Results flagged for a closer look

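The block's values in G0 and at 2 to 4 h after release did not overlap at 5 baits, and they moved in opposite directions: G0 minus 2 to 4 h was -1.05 from B26, -1.04 from B87 and -0.43 from B118, but 0.69 from B44 and 0.99 from B53. These 5 values are listed because the G0 libraries and those of 2 to 4 h did not overlap within each of these baits. The same lack of overlap was seen in 89 of 180 windows and baits (49.4%), so it was common along the chromosome. The difference between baits was tested by limma on the bait-pair differences, and 0 of 420 passed after adjustment (smallest adjusted p of the block 0.167). The 3 h and 4 h libraries, which make up 2 of the 3 later libraries, had the fewest captured sites. Without them and 0.5 h replicate 2 the same differences were -0.53, -0.31, -0.15, 0.21 and 0.12, with 1 later library left, whose spread is assumed to be that of the other groups. The part of sparse capture in the pattern was not tested. Dixon's test was applied to the first-hour libraries of each bait and to all libraries of B87 and B118, 8 groups in all, where chance marks about 1 group in 20, and no library stood apart.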

How the results depend on the processing

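Of 912 recomputed values, 849 kept their direction and side of the threshold or lay within 1.5 times of the count. The level of the block against expectation depended on how sites were counted. From B26 it was 0.37 with the share of HindIII sites, 0.40 with a saturation correction and 0.48 with unique ends, each then called higher. From B118 it was -0.064, -0.11 and 0.069 in the same order and -0.19 without G0, none of them called. With unique ends B44 at -0.20 and B53 at -0.43 lost their calls. Without the 3 labels of fewest captured sites B26 lay at -0.059 and B87 at -0.19. Called bins above expectation numbered 1 with reads or capped reads, 5 with the share of sites or the saturation correction, and 1 to 3 when 1 library was left out. Called bins below numbered 7 with unique ends and 30 without the 3 labels of fewest captured sites. Shares over all bins were not computed in these settings. Called bait pairs numbered 4 to 7 when 1 library was left out, 4 without the 4 h libraries. The mean change from the first hour to 2 to 4 h ran from -0.0062, without 4 h, to 0.071, and G0 minus 2 to 4 h was 0.025 with capped reads and 0.023 with reads. B118 minus the Ctcf window was 0.056 with unique ends. Called bins between G0 and 2 to 4 h numbered 9 with DESeq2, 1 with read totals, 5 of 24 with 1-Mb bins, 3 without 2 h technical replicate 1 and 0 to 3 when 1 library was left out (2 without 1 h replicate 1, 3 without 2 h). With the replicate number as a block, the 2 label contrasts were 0.09 and -0.16 in limma and 0 bins were called in edgeR; without the pairing of labels 7 bait pairs were called. The cause of these changes was not tested. Depth limits the sparse libraries, where the block held as few as 11 captured sites.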
